A study of Homo sapiens with 4 samples.

Results

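The MYC and MAX network was examined in RNA-seq libraries of NB4, as the labels call the cells (a human acute promyelocytic leukemia line), with or without GNE987 (written GNE-987 in the paper). The network is represented by 10 genes, which are the MYC paralogs *MYC*, *MYCN* and *MYCL*, their shared partner *MAX*, the MAX partners *MXD1*, *MXD3*, *MXD4*, *MXI1* and *MNT*, and the related gene *MLX*. They were found by gene symbol among the 58735 genes of the deposited table, and the rule used no measured value. There were 2 control libraries with no treatment and 2 libraries from cells given 25 nM GNE-987 for 24 h, the dose and time being those of the paper and the treatment that of the sample labels. GNE-987 is a bifunctional molecule that joins BET bromodomain proteins to a ubiquitin ligase, so that they are degraded. All libraries come from 1 cell line, the labels do not say whether replicates were separate cultures, and P values therefore measure only the spread between these libraries, which may be technical.

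MYC proteins are basic helix-loop-helix leucine zipper transcription factors that bind DNA only as a dimer with MAX and activate genes of growth, ribosome production and metabolism. MXD proteins, MXI1 and MNT compete for MAX and for the same E-box sequence, but recruit SIN3 corepressors, and several of them are known to rise as blood cells stop dividing and differentiate. MLX is the partner of MLXIP and MLXIPL, which respond to glucose metabolites, and it can also pair with MXD1, MXD4 and MNT. *MYC* is a well known BET-dependent gene in leukemia cells.

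Several defining granule genes of promyelocytes were at or near 0 in the control libraries. *MPO* was at 0.0246 and 0 FPKM (fragments per kilobase of gene, in the deposited scaling between libraries), *ELANE* and *CTSG* were listed at 0 in both, and the summed level of 10 promyelocyte markers was 10.9 and 9.59 FPKM. The 10 erythroid markers summed to 337 and 339 FPKM in the same libraries. With GNE-987 the sums were 32.4 and 29.9 FPKM for promyelocyte markers and 397 and 347 FPKM for erythroid markers, *CTSG* stayed at 0 and *ELANE* was at 0 and 0.551 FPKM. *MPO* was at 11.8 and 11.3 FPKM with GNE-987, and *AZU1*, another granule gene, was at 2.07 and 2.10 FPKM in control and at 12.6 and 10.9 FPKM in treated libraries, and both were called higher. Of 6 tested promyelocyte markers 3 were called higher and 1 lower, with calls as defined in the next paragraph. The marker called lower was *CD33*, at 0.84 and 0.92 FPKM in control and at 0.46 and 0.28 FPKM in treated libraries. *SPI1*, the marker with the highest control level, was at 7.5 and 5.7 FPKM in control and at 4.8 and 3.2 FPKM with GNE-987, and was not called. Of 10 erythroid markers 4 were called higher and 4 lower. Among all 16668 tested genes 33.6% were called higher and 24.9% lower. Among 10996 tested protein-coding genes 2638 were called higher and 31.7% lower. Calls were thus common, and the marker counts were not tested against this background. The part of these markers in the results below was not tested, and in bulk RNA fewer cells of a kind and less RNA per cell cannot be told apart.

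A comparison was called when limma on log2(FPKM + 0.1) gave an unadjusted P value under 0.05 with a fold change over 2 or under 0.5, the thresholds of the study's methods. Fold changes given here are those of limma with the added 0.1, so at low levels they differ somewhat from ratios of the printed FPKM. Of the 10 genes, 8 had the mean of at least 0.5 FPKM needed for the test, and *MYCN* and *MYCL* did not. With GNE-987, 3 of the 8 were called lower (*MYC*, *MLX* and *MNT*) and 2 higher (*MXD1* and *MXD4*). Among all 16668 tested genes 24.9% were called lower and 33.6% higher, and among 10996 tested protein-coding genes 31.7% were lower and 2638 genes higher, so a call is common in this comparison and the sizes tell more than the number of calls. The median log2 fold change of all tested genes was 0.17.

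**Figure D1:**
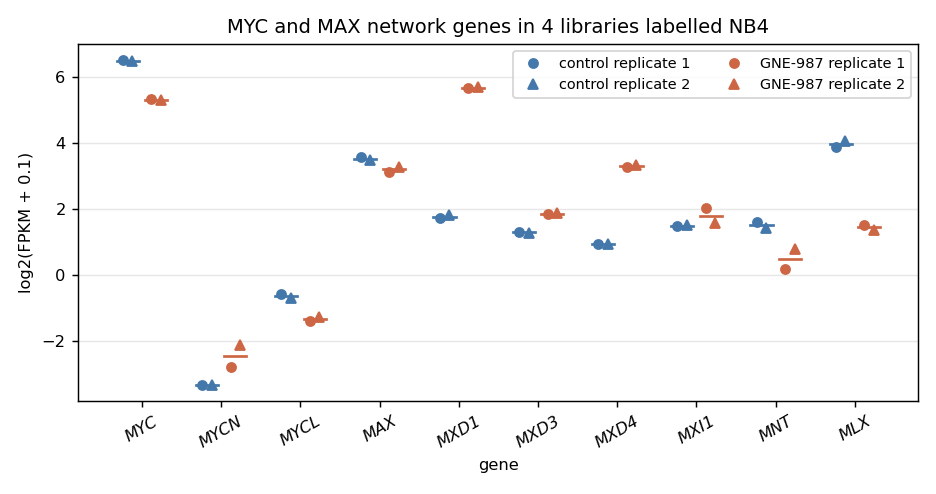
Level of the 10 network genes in each library, as log2(FPKM + 0.1) on the y axis, with circles for replicate 1, triangles for replicate 2, blue for control, orange for GNE-987 and a short line at the group mean. *MXD1* rises from near 3 to over 50 FPKM, while *MYC* and *MLX* fall, and the groups of *MAX*, *MXD3* and *MXI1* lie close together.

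*MYC* was the most highly expressed gene of the network in control cells and fell in both treated libraries. Control libraries held 91.5 and 90.4 FPKM of *MYC* RNA, and GNE-987 libraries 40.3 and 39.5 FPKM. The groups did not overlap, and the difference was far larger than the spread between replicates. *MYC* expression was 2.28-fold lower, with a log2 fold change of -1.19 ± 0.0385 (SE, n = 2 libraries per group) and an adjusted P value of 0.000188. The gene (ENSG00000136997) lies on chromosome 8 and shares 194 exon bases with *CASC11* on the opposite strand, which did not exceed 0.0483 FPKM in any library.

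The other MYC paralogs were barely expressed. *MYCN*, best known from neuroblastoma, had no signal in control cells (both values listed at 0) and 0.0460 and 0.131 FPKM in treated cells, which corresponds to 1 and 3 reads. *MYCL*, best known from small cell lung cancer, was at 0.575 and 0.518 FPKM in control cells and at 0.283 and 0.313 FPKM in treated cells, the latter resting on about 12 and 14 reads. Its groups did not overlap, but without the filter on low values its log2 fold change of -0.70 ± 0.227 (SE) had an adjusted P value of 0.0838. *MYC* therefore accounted for nearly all of the summed paralog level, which was 92.1 and 90.9 FPKM in control and 40.6 and 39.9 FPKM in treated libraries.

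The genes nearest to *MYC* in level and change were sought by Euclidean distance over the 4 log2(FPKM + 0.1) values among tested protein-coding genes. They were *FEN1*, *GARS1*, *PSMB5*, *MAGEA3* and *PPIF*, at distances from 0.1 for *FEN1* to 0.395 for *PPIF*. *FEN1* was at 89.2 and 86.5 FPKM in control cells and at 39.7 and 41.3 FPKM with GNE-987.

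*MAX*, the obligate partner of MYC proteins, differed least among the members over 10 FPKM in control cells. Its level was 11.8 and 11.1 FPKM in control cells and 8.69 and 9.67 FPKM with GNE-987. Both treated values lay below both control values, by little. The log2 fold change was -0.32 with a 95% interval from -0.55 to -0.08 and an adjusted P value of 0.0279, and it did not reach the fold threshold. *MAX* (chromosome 14 of GRCh38, 65006174 to 65102695, minus strand) shares 822 of its 6257 exon bases with *FNTB* on the opposite strand.

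Among the repressor partners of MAX, *MXD1* showed by far the largest rise. *MXD1*, whose product is a MAX dimerization protein and which is known to be induced in differentiating myeloid cells, measured 3.23 and 3.41 FPKM in control cells and 50.6 and 52.3 FPKM in treated cells. The groups were wide apart and the replicates close together. The increase was 15.1-fold, with a log2 fold change of 3.91 ± 0.0583 (SE, n = 2 libraries per group) and an adjusted P value of 9.61e-05. The deposited values came out as whole reads at the exon length of GENCODE release 44, with 473 and 479 reads in the deeper control libraries and 2687 and 2929 in the shallower treated ones.

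*MXD4* also rose clearly. It was at 1.85 and 1.84 FPKM in control cells and at 9.63 and 10.05 FPKM in treated cells, again without overlap. Its increase was 5.11-fold, with a log2 fold change of 2.35 ± 0.077 (SE) and an adjusted P value of 0.000191. *MXD1* (ENSG00000059728) lies on the plus strand of chromosome 2 from 69897688 to 69942945, and *MXD4* (ENSG00000123933) on the minus strand of chromosome 4 from 2247432 to 2262109. *MXD1* shares 237 of 6351 exon bases with *SNRNP27* on the same strand, whose level went the other way, from 8.38 and 8.76 FPKM to 5.42 and 5.28 FPKM.

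The remaining repressor genes were not called higher. *MXD3*, the family member known to be expressed in dividing cells, was at 2.37 and 2.35 FPKM in control cells and at 3.48 and 3.61 FPKM with GNE-987. This was a small difference without overlap, with a log2 fold change of 0.57, a 95% interval from 0.31 to 0.82 and an adjusted P value of 0.00651. *MXD3* shares 1148 of its 4743 exon bases with *PRELID1* and 926 with *RAB24*, so its reads are among the least certain here.

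*MXI1*, also known as MXD2, did not differ beyond the replicate spread. It was at 2.70 and 2.75 FPKM in control cells and at 3.97 and 2.90 FPKM with GNE-987, so that the treated replicates were farther from each other than the nearer one was from control. The 95% interval of its log2 fold change ran from -0.20 to 0.82, and the adjusted P value was 0.192.

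*MNT*, the repressor that most dividing cells express, was the exception with a lower level. It was at 2.94 and 2.62 FPKM in control cells and at 1.04 and 1.65 FPKM in treated cells. The groups did not overlap, but the treated replicates were unequal and rested on about 76 and 127 reads. The log2 fold change of -1.02 ± 0.255 (SE) stood just past the fold threshold, with an adjusted P value of 0.0242. Without control replicate 1 it was -0.94, without control replicate 2 it was -1.10 and without GNE-987 replicate 1 it was -0.72, and in none of these was it called. Without GNE-987 replicate 2 it was -1.33 and called.

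**Figure D2:**
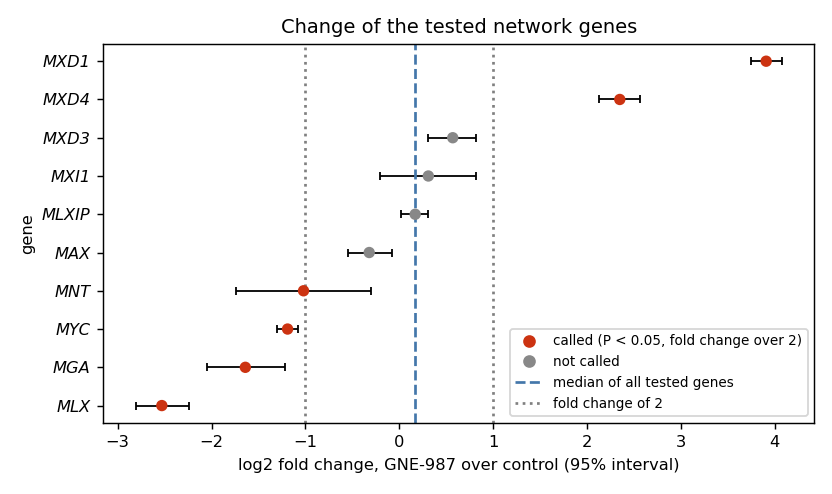
Log2 fold change of GNE-987 over control on the x axis, with 95% intervals from limma, for the 8 tested network genes and the tested partners *MGA* and *MLXIP*. Red points are called, grey points are not, dotted lines mark a fold change of 2 and the dashed line marks the median of all tested genes at 0.17. *MXD1* at 3.91 and *MXD4* at 2.35 stand on one side and *MLX* at -2.53 on the other, and the interval of *MNT* spans the threshold.

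The rank order of the network was rebuilt by these changes. FPKM values are per length of gene, so that levels can be set side by side. In control cells *MYC* was followed by *MLX* at 15.7 ± 1.26 FPKM (SD, n = 2), *MAX* at 11.5 ± 0.517 FPKM and *MXD1* at 3.32 ± 0.124 FPKM. *MNT*, *MXI1*, *MXD3* and *MXD4* came next between 1.84 and 2.94 FPKM, and *MNT* and *MXI1* overlapped. With GNE-987, *MXD1* at 51.4 ± 1.17 FPKM stood above *MYC* at 39.9 ± 0.569 FPKM, without overlap. *MXD4* at 9.84 ± 0.299 FPKM and *MAX* at 9.18 ± 0.688 FPKM overlapped, as did *MXD3* and *MXI1*.

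Ratios within a library do not depend on how libraries were scaled to each other. The ratio of *MYC* to *MXD1* was 28.3 and 26.5 in control libraries and 0.796 and 0.756 with GNE-987. The 5 repressor genes together were at 13.1 and 13.0 FPKM in control and at 68.7 and 70.5 FPKM in treated libraries. The MYC paralogs thus stood at 7.04 and 7.01 times the repressor sum before treatment and at 0.591 and 0.567 times after it. The make-up of the repressor sum changed as well. *MXD1* held 24.7% and 26.3% of it in control libraries and 73.6% and 74.2% with GNE-987, *MXD4* held 14.1% and 14.2% against 14.0% and 14.3%, and *MNT* fell from 22.4% and 20.2% to 1.52% and 2.34%.

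Against *MAX*, the common partner, the picture was similar. *MYC* was at 7.74 and 8.15 times *MAX* in control libraries and at 4.63 and 4.08 times with GNE-987. *MXD1* moved from 0.274 and 0.307 times *MAX* to 5.82 and 5.40 times, and *MXD4* from 0.156 and 0.166 to 1.11 and 1.04 times. These are ratios of RNA and say nothing of protein.

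**Figure D3:**
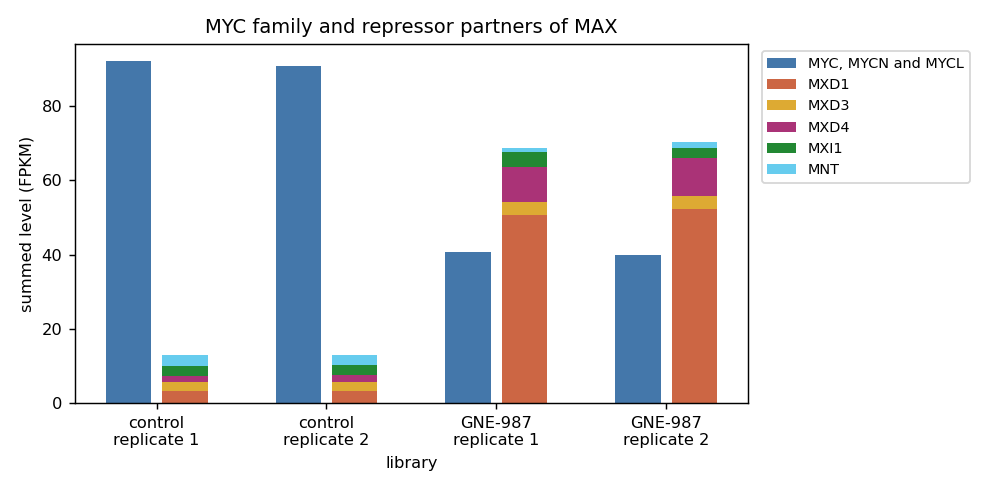
Summed level in FPKM (y axis, from 0) of *MYC*, *MYCN* and *MYCL* (blue bars) and of the 5 repressor partners of MAX (stacked bars, coloured by gene) in each of the 4 libraries. The blue bar is the taller in both control libraries and the stacked bar in both GNE-987 libraries, where *MXD1* makes up most of it.

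*MLX* had the largest decrease of the network. It was at 14.8 and 16.6 FPKM in control cells and at 2.78 and 2.50 FPKM with GNE-987, and the groups were far apart. The decrease was 5.77-fold, with a log2 fold change of -2.53 ± 0.101 (SE) and an adjusted P value of 0.000245. *MLX* (ENSG00000108788) lies on the plus strand of chromosome 17 from 42567072 to 42573239 and shares 775 of its 4255 exon bases with *PSMC3IP* on the opposite strand. *PSMC3IP* went the other way, from 5.91 and 5.92 FPKM to 15.2 and 16.4 FPKM, and whether the counting used strand is not given in the sources used here.

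The partners of MLX and the last MAX partner were followed as a list. *MLXIP*, which encodes the glucose-responsive partner MondoA, was at 16.7 and 17.4 FPKM in control cells and at 18.9 and 19.4 FPKM with GNE-987, with a log2 fold change of 0.17 and a 95% interval from 0.02 to 0.31. The ratio of *MLXIP* to *MLX* therefore went from 1.13 and 1.05 to 6.78 and 7.76. *MLXIPL*, which encodes ChREBP, was under 0.5 FPKM in each library and was not tested. *MGA*, whose product pairs with MAX in a repressive complex, fell from 3.56 and 4.08 FPKM to 1.25 and 1.07 FPKM, with a log2 fold change of -1.64 ± 0.146 (SE) and an adjusted P value of 0.00128.

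*TXNIP* and *ARRDC4*, arrestin-domain genes that restrain glucose uptake and are the best known targets of MLX with MLXIP, both rose strongly while *MLX* RNA was lower. *TXNIP* was at 26.2 and 26.4 FPKM in control cells and at 971 and 961 FPKM with GNE-987, a 36.6-fold increase. *ARRDC4* was at 1.72 and 1.58 FPKM and then at 134 and 138 FPKM, a 77.9-fold increase. Both had adjusted P values of 8.96e-05.

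Promoters were read because these factors share a binding motif, the E-box CACGTG, which is the same on both strands. The 250 bases before each start annotated by RefSeq (GRCh38.p14) were searched. RefSeq windows were found for 9 of the 10 network genes, all but *MYC*, and 3 of them held the motif (*MXD4*, *MNT* and *MLX*), against 11.3% of 8968 tested protein-coding genes and 7.73% of 27305 genes with a window. The *MAX* windows (65102284 to 65102533 and 65101685 to 65101934) lie inside the annotated gene, and 230 of the 250 bases of the former are exon bases. Bases before the outermost annotated start of *MAX* were thus not searched, and its lack of a match says nothing of them. The *MXD1* window (69914859 to 69915108) also lies inside its annotated gene. A match is a description of the letters and not of binding. Of these 3 genes *MXD4* rose and *MNT* and *MLX* were called lower, and *MXD1*, the gene with the largest change, held no such letters in its window. The windows are shown from 5′ to 3′ with CACGTG in capitals, as 30 bases around the motif for *MNT* (chromosome 17, window 2401061 to 2401310, minus strand) and *MLX* (chromosome 17, window 42566850 to 42567099, plus strand), and whole for *MXD4* (chromosome 4, 2262110 to 2262359, minus strand), which rose.
MNT: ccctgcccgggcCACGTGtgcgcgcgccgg
MLX: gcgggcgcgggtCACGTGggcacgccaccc
MXD4: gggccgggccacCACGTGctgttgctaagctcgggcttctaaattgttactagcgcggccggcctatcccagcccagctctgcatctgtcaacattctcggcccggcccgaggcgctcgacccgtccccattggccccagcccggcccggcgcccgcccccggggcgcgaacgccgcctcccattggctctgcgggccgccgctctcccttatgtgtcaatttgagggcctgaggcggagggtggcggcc

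The motif began 238 bases before the start of *MXD4*, 193 before that of *MNT* and 50 before that of *MLX*. *ARRDC4* (chromosome 15, 97960453 to 97960702, plus strand) also held CACGTG, 210 bases before its start. *TXNIP* (chromosome 1, 145996580 to 145996829, minus strand) held none, but it held a pair of the related letters CACGNG spaced by 5 bases, 88 bases before its start. This paired form (CNCGTG with the same spacing on the other strand) was searched after the *TXNIP* window had been read, and it stands in 0.156% of the tested protein-coding genes with a window and in 0 of the 9 network genes with a window. The limit given for the *MAX* and *MXD1* windows holds here too. Both windows are shown because the genes had the largest increases in the account of *MLX*, with the motif in capitals.
ARRDC4: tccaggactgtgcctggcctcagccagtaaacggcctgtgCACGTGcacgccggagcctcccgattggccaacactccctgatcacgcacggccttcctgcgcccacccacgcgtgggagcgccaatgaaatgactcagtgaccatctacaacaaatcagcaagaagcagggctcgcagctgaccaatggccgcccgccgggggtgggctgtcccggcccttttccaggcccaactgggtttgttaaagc
TXNIP: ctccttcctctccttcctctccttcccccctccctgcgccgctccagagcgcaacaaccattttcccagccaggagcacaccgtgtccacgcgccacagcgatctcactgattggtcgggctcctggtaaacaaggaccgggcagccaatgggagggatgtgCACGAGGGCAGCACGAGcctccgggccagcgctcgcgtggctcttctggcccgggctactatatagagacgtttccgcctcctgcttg

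Among genes known to be activated by MYC, more were called lower than higher with GNE-987. Of 71 such genes, written as a list by hand, 70 were tested, 31 were called lower (44.3%) and 3 higher (4.29%), beside 31.7% of tested protein-coding genes called lower and 2638 of 10996 called higher. Their median log2 fold change was -0.85, beside -0.29 for protein-coding genes and 0.17 for all tested genes. With scaling to total reads on genes 49 of the 70 were called lower, beside 39.8% of all tested genes. With scaling to *GAPDH* 66 of the 70 were called lower, beside 58.4% of all tested genes. The share of protein-coding genes was not counted under these scalings. Under the deposited scaling it was 31.7%, above the 24.9% of all tested genes. The list was chosen with earlier results of these data known and overlaps ribosome assembly genes, so its direction is no independent evidence.

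The largest decreases on the list came from several functions. *PPRC1*, a coactivator of mitochondrial gene expression, fell from 18.1 and 18.6 FPKM to 1.86 and 2.12 FPKM (log2 fold change -3.14, adjusted P value 0.000169). *HK2*, the hexokinase that starts glycolysis, fell from 19.8 and 19.7 FPKM to 1.89 and 2.58 FPKM (-3.10, 0.00041). *WDR43*, a nucleolar protein gene, had a log2 fold change of -2.92, and *SLC29A2*, a nucleoside transporter gene, one of -2.80. These 4 genes fell by more than *MYC* itself.

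By function, 13 of 30 genes of nucleolus and ribosome assembly were lower and 2 higher, 6 of 15 metabolic genes lower, 3 of 10 cell cycle genes lower, 4 of 7 genes of translation and protein folding lower, and 5 of 8 mitochondrial genes lower and 1 higher. With 31.7% of tested protein-coding genes called lower, the share of the cell cycle genes was just under the background and that of the metabolic genes not far above it. The 3 genes called higher were *WDR74*, with a log2 fold change of 1.89, *PHB1*, with 1.22, and *NOP2*, with 3.76, the last named after its values were seen. Under the deposited scaling abundant targets did not all fall. *NPM1*, *NCL* and *ODC1*, the last encoding the first enzyme of polyamine synthesis, were named after their values were seen. *NPM1* was at 368 and 389 FPKM in control and at 669 and 651 FPKM in treated cells, *NCL* at 126 and 135 FPKM and then at 159 and 158 FPKM, and *ODC1* at 203 and 209 FPKM and then at 296 and 291 FPKM, each below a fold change of 2. Their log2 fold changes of 0.80, 0.28 and 0.51 were smaller in size than the shift of -1.77 that scaling to *GAPDH* gave the all-gene median.

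Among genes known to be repressed by MYC, some were called higher and the others were not called. Of 10 such genes 8 were tested, 5 were called higher and 0 lower, and at an unadjusted P value under 0.05 alone 7 were higher and 0 lower with limma. Among all tested genes 33.6% were called higher, and 7080 of 16668 were higher at that P value alone. The median log2 fold change of the 8 genes was 1.84, beside -0.29 for protein-coding genes. *CDKN1A*, which encodes the cell cycle inhibitor p21, was at 0.812 and 0.548 FPKM in control cells and at 70.0 and 71.9 FPKM with GNE-987, with a log2 fold change of 6.53 ± 0.188 (SE). *CDKN1B*, which encodes the inhibitor p27, rose from 10.5 and 11.8 FPKM to 55.0 and 50.1 FPKM. *GADD45B*, a stress-response gene, and *KLF6*, a zinc finger factor gene, had log2 fold changes of 5.97 and 5.72, and *NDRG1* had 1.46. *GADD45A* differed little, at 37.6 and 36.2 FPKM in control and 39.2 and 37.4 FPKM in treated cells.

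**Figure D4:**
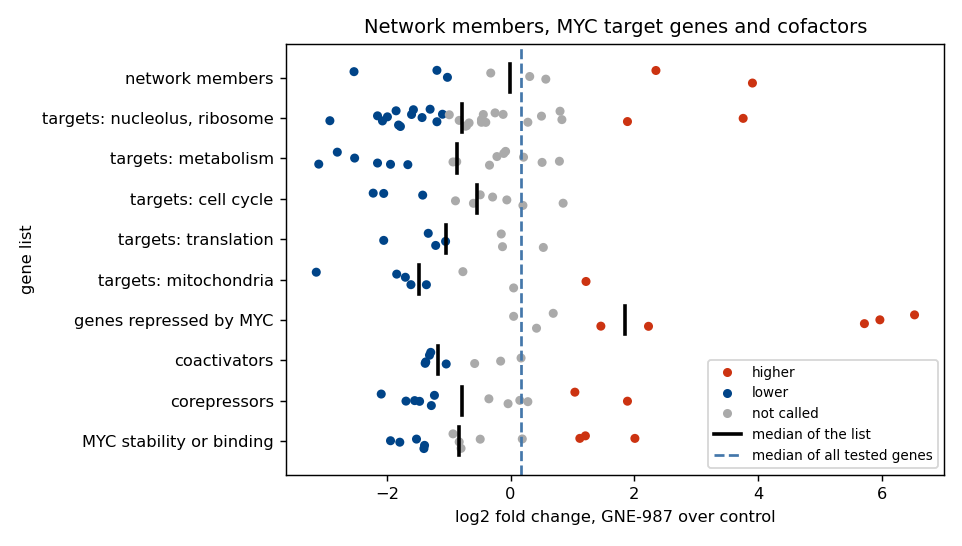
Log2 fold change of GNE-987 over control (x axis) for each tested gene of the network, of the MYC target lists, of the genes repressed by MYC and of the cofactor lists (y axis). Red points were called higher, blue lower and grey not called, black bars are list medians and the dashed line is the median of all tested genes. The target lists lie mostly left of the dashed line, with *PPRC1* at -3.14, and the repressed list to its right, with *CDKN1A* at 6.53.

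Among cofactors and regulators of the network, more were called lower than higher. Of 34 listed genes 33 were tested, 16 were called lower (48.5%) and 5 higher (15.2%), with a median log2 fold change of -0.93. Among tested protein-coding genes 31.7% were called lower and 2638 of 10996 higher, with a median of -0.29. Among coactivators bound by MYC, 5 of 8 were lower (*TRRAP*, *KAT5*, *EP400*, *ACTL6A* and *WDR5*, with log2 fold changes from -1.38 to -1.04). None of the 8 was called higher by limma, and at an unadjusted P value under 0.05 alone 6 were lower and 0 higher. At that P value alone 5354 of 10996 tested protein-coding genes were lower and 3941 higher with limma.

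The SIN3 corepressor genes, on which MXD proteins rely, were not uniform. *SIN3A* did not differ, at 4.57 and 4.72 FPKM in control cells and 4.49 and 4.58 FPKM with GNE-987. *SIN3B* fell from 8.50 and 9.50 FPKM to 2.89 and 2.57 FPKM, and *SAP30*, a subunit of the SIN3 complex, from 20.8 and 17.6 FPKM to 4.53 and 4.29 FPKM. *NCOR1*, a corepressor gene, had a log2 fold change of -1.55. In all 6 of 12 corepressor genes were lower (50.0%, beside the 31.7% of protein-coding genes) and 2 higher (16.7%), the latter being *ARID4B*, at 1.89, and *ARID4A*, at 1.04, which was named after its values were seen.

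Among 13 tested genes that act on MYC protein or bind it, 5 were lower (38.5%) and 3 higher (23.1%), shares near those of all tested protein-coding genes (31.7% lower and 2638 of 10996 higher). *CIP2A*, whose product protects MYC protein from dephosphorylation, had a log2 fold change of -1.94. *GSK3B*, which encodes the kinase that marks MYC for degradation, rose from 5.17 and 5.24 FPKM to 21.0 and 21.4 FPKM, with a log2 fold change of 2.01 and an adjusted P value of 0.000152. *FBXW7*, the ubiquitin ligase subunit for MYC, had a log2 fold change of 1.21 and was named after its values were seen.

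The scaling between libraries bears on each of these values. The deposited values were already at median-ratio scaling, with a factor of 1 for each library. *GAPDH*, the reference gene of the study's qRT-PCR, was at 398 and 432 FPKM in control and at 1501 and 1499 FPKM with GNE-987, and *ACTB* was 2.47-fold higher, while *TBP* had a log2 fold change of -0.30. Scaling to *GAPDH* moved the median log2 fold change of all tested genes by -1.77, scaling to total reads on genes by -0.73 and quantile normalization by -0.36. The calls among all genes then split into 18.2% higher and 58.4% lower, 25.1% and 39.8%, and 26.8% and 31.4%.

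Scaling to *GAPDH* or to total reads divides each library by its own factor, which shifts all genes by nearly the same amount. The order of the members and their distance from the all-gene median were thus nearly fixed in advance under these scalings. Quantile normalization is not bound in this way, and the order held under it. Not each direction held. The log2 fold change of *MXD1* was 2.08 with scaling to *GAPDH* and 3.15 with scaling to total reads, and that of *MYC* -3.04 and -1.95. *MXD4* was at 0.55 with scaling to *GAPDH* and was no longer called, and *MXD3* and *MXI1* turned to -1.22 and -1.48. After the all-gene median under the same scaling was subtracted, *MXD1* stood at 3.74 with the deposited scaling and 3.67 with *GAPDH*, *MXD4* at 2.18 and 2.14, *MLX* at -2.70 and -2.74, and *MYC* at -1.36 and -1.44. Quantile normalization moved *MYC* most on that measure, to -1.81. Under the deposited scaling the median of tested protein-coding genes was -0.29, below the all-gene median of 0.17, so decreases are smaller against protein-coding genes.

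**Figure D5:**
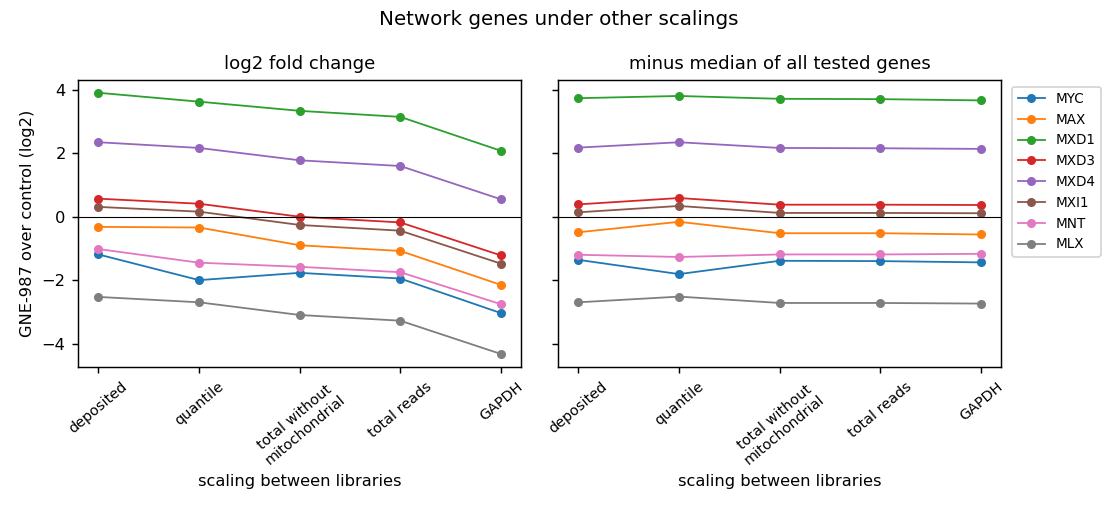
Log2 fold change of GNE-987 over control (y axis) of the 8 tested network genes under 5 scalings between libraries (x axis), as such in the left panel and after subtracting the median of all tested genes under the same scaling in the right panel. Lines join 1 gene. On the left each of the 8 genes is lowest with scaling to *GAPDH*, where *MXD4* reaches 0.55, and on the right *MXD4* stays between 2.14 and 2.35. Apart from quantile normalization, the scalings use a factor per library, so the right panel is nearly flat across them by arithmetic.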

How the data were processed

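RNA-seq was analysed in 4 libraries. The authors filtered reads, mapped them with HISAT2 2.0.5 to hg38 (per the labels' processing notes) and deposited FPKM values, with DESeq2 as their test of differential expression. The counting tool and annotation are not given in the sources used here. No column was left without a sample. Genes were matched by identifier to GENCODE release 44 (99.1% of 58735).

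FPKM were transformed to log2(FPKM + 0.1). The 16668 genes averaging 0.5 FPKM or more entered limma 3.58.1 (R 4.3.3, intensity trend, no block), and the Benjamini-Hochberg adjustment of P ran over them together.

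Genes with 1 read give the worth of a read, and with exon lengths of GENCODE release 44 there were 19347286 and 19142227 reads on genes in control and 12238111 and 12740693 in GNE-987 libraries. The length is not always the authors', so that 55.6% to 64.0% of values under 200 reads came out whole within 0.01.

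Members and lists were chosen with earlier results of these data known. Named list genes were the 4 largest changes in each direction among called genes that averaged 5 FPKM or more, and others are marked as named later. A gene that this rule names is not reported here. Neighbours within 5000 bases were searched. On simulated data 178 of 200 changed genes were called with the right sign (89%), and 231 of the unchanged ones (1.4%). The simulation changed only 200 of 16668 genes and held no scaling difference between groups. It therefore gives no rate of false calls for these data, where calls are common and depend on scaling. Alternatives were other pseudocounts, filters, scalings and thresholds, the replicate block and leaving out each library. Scaling without mitochondrial genes was added after the data were seen.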

Additional observations from a re-analysis of the deposited data

How the results depend on the processing

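The members called (3 lower, 2 higher) moved beyond 1.5 times only with scaling to *GAPDH*, to 6 and 1. That scaling gave 66 MYC target genes lower and 1 higher in place of 31 and 3, and 28 cofactor genes lower and 0 higher in place of 16 and 5 (0 higher also at an unadjusted P value under 0.05 alone). Among all tested genes, scaling to *GAPDH* called 58.4% lower and 18.2% higher, in place of 24.9% and 33.6%. Scaling to total reads gave 49 target genes lower, and it called 39.8% of all tested genes lower and 25.1% higher. Cofactor genes called higher were 2 with scaling to total reads, with or without mitochondrial genes, and with quantile normalization, and 3 with a pseudocount of 1 and when limma tested for a change beyond 2-fold. The log2 fold change of *MXD3* turned to -1.22 (*GAPDH*) and -0.18 (total reads), and that of *MXI1* to -1.48, -0.44 and, without mitochondrial genes, -0.26. *MAX* was called lower at -2.15 (*GAPDH*) and -1.08 (total reads). *MNT* was not called with a pseudocount of 1 (-0.70) or when tested for a change beyond 2-fold. The other pseudocount, the filters and the adjusted threshold moved none of these counts beyond 1.5 times. The cause of these shifts was not tested.

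With each library left out in turn, members lower numbered 2 to 3 and higher 2 to 2, target genes lower 30 to 32 and higher 3 to 3, and cofactors lower 16 to 16 and higher 5 to 5. With the replicate block 3 members were lower and 2 higher, and 5667 genes in all were higher and 4186 lower. Same-numbered libraries did not deviate together (correlation 0.00537 across genes), so the numbers were not taken as pairs. Depth limits *MYCN*, *MYCL*, *MNT* and *MLX*, with 127 reads or fewer in each treated library.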

Other observations

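Genes beside the network members moved in their own ways, and are given as values. *NSD1*, a histone methyltransferase gene 1248 bases from *MXD3* on the opposite strand, fell from 6.99 and 8.31 FPKM to 0.973 and 0.980 FPKM, while *LMAN2*, 3048 bases away on the same strand as *MXD3*, was at 84.5 and 75.0 FPKM and then at 158 and 151 FPKM. *RAB24*, which overlaps *MXD3*, was called lower with a log2 fold change of -1.93. *METTL16*, an RNA methyltransferase gene 4458 bases from *MNT*, had a log2 fold change of -2.56, and *SGSM2*, 3015 bases from *MNT* on its other side, one of -1.11. *COASY*, which encodes the enzyme for the last steps of coenzyme A synthesis and ends 795 bases before *MLX* on the same strand, fell from 41.9 and 40.7 FPKM to 17.2 and 18.3 FPKM.

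Promoter windows with CACGTG were found for 19 of the 57 MYC target genes with a RefSeq window (33.3%) and for 5 of 28 cofactor genes (17.9%), beside 11.3% of tested protein-coding genes. These shares describe hand-written lists.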
